A study of Xenopus tropicalis with 7 samples.

Results

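The genes described here make, remove and read retinoic acid. They are the retinaldehyde dehydrogenases *aldh1a1*, *aldh1a2* and *aldh1a3*, the retinaldehyde reductase *dhrs3*, the retinoic acid hydroxylases *cyp26a1*, *cyp26b1* and *cyp26c1*, and the nuclear receptors *rara*, *rarb* and *rarg*. They were chosen by name, and all 10 names were found among the 19884 genes of the count table. All 10 also passed the filter on low counts.

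Retinoic acid is a small lipid made from vitamin A. Retinol is oxidised reversibly to retinaldehyde and then irreversibly to retinoic acid, which enters the nucleus and binds a retinoic acid receptor paired with a retinoid X receptor on DNA. In vertebrate embryos the synthesising enzyme *aldh1a2* is best known from the paraxial mesoderm of the trunk, and the Cyp26 enzymes clear retinoic acid from the tail bud and from parts of the head and hindbrain, so that the signal acts in zones along the body axis. Other members of the ALDH1A family are known from the developing eye.

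Poly(A) RNA of whole *X. tropicalis* embryos was sequenced to ask how the transcriptome of early tadpoles differs when both Brachyury paralogues are depleted. At stage 32, 3 libraries came from Xbra/Xbra3 KD embryos, which had been injected with 20 ng of antisense morpholinos against *Xbra* and *Xbra3*, and 3 from control embryos, which had been injected with 20 ng of a control morpholino. A further library came from uninjected embryos at stage 20. No genetic alteration is named in the sources for any group. Each library was made from RNA to the amount of 2 embryos, and a morpholino lowers splicing or translation of its target without deleting the gene. The libraries held 73740300 to 120160026 reads. *Xbra3*, listed as *t2*, lay between 0.515 and 0.772 CPM in the KD libraries and at 14.5 CPM or more in each control library, and *Xbra*, listed as *t*, lay between 6.30 and 8.55 CPM in the KD libraries and between 9.90 and 17.5 CPM in the others. CPM is the read count of a gene relative to the total of its library, after TMM scaling between libraries. It is not divided by transcript length, so levels are compared only within a gene.

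Of the retinoic acid genes, *cyp26b1* was the 1 gene of 10 that passed the test between KD and control embryos, and it was higher in the KD, as 7.44% of all genes were. The test was edgeR's quasi-likelihood test over 16944 genes, without a term for the replicate number. The threshold was a false discovery rate (FDR) below 10%, which 14.4% of all genes passed, so 1 of 10 is near the share of genes at large. None of the 10 was significantly lower, where 6.98% of all genes were. The estimates of 7 genes were negative and of 3 positive, with a median log2 fold change of -0.06 against 0.01 over all genes tested. Of all genes that passed, 48.4% were lower in the KD with TMM scaling, against 34.5% with scaling by library size alone and 36.3% with scaling to 4 reference genes. At an unadjusted p below 0.05 there were 2 of the 10 genes, *cyp26b1* and *aldh1a1*, and 25.2% of all genes. DESeq2 called the same 2 of the 10, and 20.8% of the 16274 genes to which it gave an adjusted p.

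The replicate numbers pair the libraries: a KD library and the control library of the same number deviated together from their group means. With the replicate number as a block in the model, 3 of the 10 genes passed, *cyp26b1* higher and *aldh1a1* and *dhrs3* lower, while 38.2% of all genes passed. The KD and control libraries did not overlap for 1 of the 10 genes, *cyp26b1*, and for 30.4% of all genes. In 4 of the 10 genes the 3 same-numbered pairs differed in 1 direction, as in 58.3% of all genes.

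**Figure D1:**
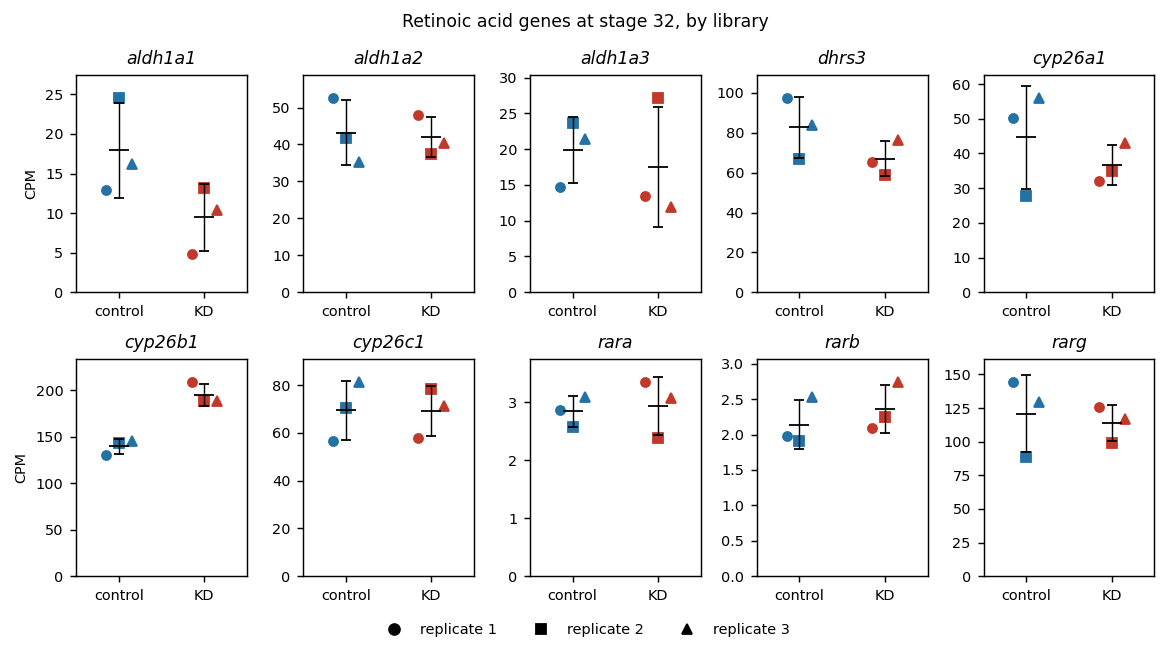
Level of each retinoic acid gene in CPM (y axis from 0, with its own scale in each panel) in the 3 control and 3 Xbra/Xbra3 KD libraries at stage 32; symbols mark the replicate number, and the bar and whiskers are the mean and SD of 3 libraries. The KD libraries of *cyp26b1*, at 188 to 209 CPM, lie above its control libraries at 131 to 145 CPM, and in the other panels the groups overlap.

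The enzymes that make retinoic acid come first. *aldh1a1* (ENSXETG00000019615) oxidises retinaldehyde to retinoic acid and is known from the dorsal retina of vertebrate embryos. It was at 4.80, 13.2 and 10.4 CPM in KD replicates 1, 2 and 3 and at 12.9, 24.6 and 16.2 CPM in control replicates 1, 2 and 3. Replicate 2 was the highest library of each group, and KD replicate 2 lay above control replicate 1, so the groups overlap, yet in each same-numbered pair the KD library was the lower by 0.64 to 1.43 on the log2 scale. The means were 9.46 ± 4.26 CPM (KD) and 17.9 ± 5.99 CPM (control, SD over n = 3 libraries each), a log2 fold change of -0.93 with a standard error of 0.38 (95% interval -1.80 to -0.05, edgeR unadjusted p 0.0399, FDR 0.174). This does not pass 10%. With the replicate block the log2 fold change was -0.98 and the edgeR FDR 0.00298, and DESeq2 gave an FDR of 0.0680. The estimate was -0.61 without KD replicate 1 and -1.25 without KD replicate 2.

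*aldh1a2* (ENSXETG00000010865), the main retinoic acid synthesising enzyme of the early vertebrate trunk, differed by less than the spread between replicates. It was at 48.1, 37.5 and 40.5 CPM in the KD replicates and at 52.6, 41.8 and 35.3 CPM in the control replicates. The KD libraries lay inside the range of the control libraries. The means were 42.0 ± 5.46 and 43.2 ± 8.74 CPM (SD, n = 3 libraries), and the log2 fold change was -0.04 (standard error 0.17, edgeR FDR 0.915) with TMM scaling and 0.034 with scaling by library size alone. Its 95% interval, -0.44 to 0.36, leaves room for a change within these bounds in either direction. A second annotated transcript of *aldh1a2* held no more than 2 reads in any library. A read pair that fits both transcripts was counted once, so this is not an isoform level.

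*aldh1a3* (ENSXETG00000018751), a retinaldehyde dehydrogenase known from the ventral retina and the nasal region, was at 13.5, 27.2 and 11.97 CPM in the KD replicates and at 14.7, 23.6 and 21.4 CPM in the control replicates. Both replicates 2 were the highest of their group, and the groups overlap, with the highest library of all in the KD. The log2 fold change was -0.19 (standard error 0.33, 95% interval -0.94 to 0.57, edgeR FDR 0.780), from means of 17.5 ± 8.38 and 19.9 ± 4.66 CPM (SD, n = 3 libraries). Summed over the ALDH1A genes the KD libraries held 62.9 to 77.8 CPM and the control libraries 72.9 to 90.0 CPM.

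Markers of the eye, the tissue in which both *aldh1a1* and *aldh1a3* are known, were read beside them. Of 12 listed eye and retina genes 1 passed the test, higher in the KD (14.4% of all genes passed), and 5 passed with the replicate block, 4 of them higher (38.2% of all genes). Their summed level was 375 to 444 CPM in the KD libraries and 328 to 513 CPM in the control libraries, with replicate 2 the highest of each group. None of these markers was at 0 in any stage 32 library. In whole embryos fewer cells of a type and less RNA per cell cannot be told apart, and the part of the eye in the values of *aldh1a1* and *aldh1a3* was not tested.

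*dhrs3* (ENSXETG00000001388) encodes a reductase that returns retinaldehyde to retinol and so draws on the same substrate as the ALDH1A enzymes. It was at 65.6, 58.9 and 76.2 CPM in the KD replicates and at 97.5, 66.8 and 83.8 CPM in the control replicates. The KD library was lower in all 3 same-numbered pairs, by 0.57, 0.18 and 0.14 on the log2 scale, but the groups overlap. The means were 66.9 ± 8.76 and 82.7 ± 15.4 CPM (SD, n = 3 libraries), a log2 fold change of -0.31 (standard error 0.17, 95% interval -0.69 to 0.08, edgeR FDR 0.299). With the replicate block the estimate was -0.30 and the edgeR FDR 0.0699. The estimate was -0.17 without control replicate 1, the library with the highest *dhrs3* level.

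The Cyp26 enzymes hydroxylate retinoic acid and so remove it. *cyp26b1* (ENSXETG00000021546), known in vertebrate embryos from the hindbrain and the limb buds among other places, rose in the KD. It was at 209, 189 and 188 CPM in the KD replicates, from 21402, 15033 and 20667 reads, and at 131, 143 and 145 CPM in the control replicates, from 14599, 16058 and 11187 reads. The lowest KD library lay above the highest control library, and each KD library was above its same-numbered control by 0.68, 0.40 and 0.37 on the log2 scale. The rise was 1.40-fold (log2 fold change 0.49, standard error 0.11, 95% interval 0.24 to 0.73), from 140 ± 7.95 to 196 ± 11.8 CPM (SD, n = 3 libraries), with an edgeR FDR of 0.0362. DESeq2 gave an FDR of 0.00256 and the replicate block 0.00660. Of the 6 fits without 1 of the libraries, 3 kept the gene below 10%, and it missed 10% without KD replicate 1 (FDR 0.1003), control replicate 1 (0.114) or control replicate 3 (0.115), where the log2 fold change was 0.43, 0.44 and 0.52.

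*cyp26a1* (ENSXETG00000018184), which is itself induced by retinoic acid in many embryos and is known from the tail bud, was at 32.0, 35.1 and 43.0 CPM in the KD replicates and at 50.1, 27.8 and 56.0 CPM in the control replicates. Control replicate 2 was the lowest of the 6 libraries and the other controls were the highest. The log2 fold change was -0.28 (standard error 0.25, 95% interval -0.87 to 0.31, edgeR FDR 0.542), from means of 36.7 ± 5.70 and 44.6 ± 14.9 CPM (SD, n = 3 libraries). This value rests on single libraries: it was -0.56 without control replicate 2 (edgeR FDR 0.0878) and -0.086 without control replicate 3 (edgeR FDR 0.898). Of the reads of *cyp26a1*, the minor of its 2 annotated transcripts held 6.63% to 7.42% in the KD libraries, 6.03% to 6.36% in the control libraries and 7.56% at stage 20. A read pair that fits both transcripts was counted once, so these shares are not isoform levels. Their difference between the groups was not tested. The study also depleted the T-box factors Eomes and zygotic VegT together with Xbra and Xbra3. In those embryos it reported *cyp26a1* and *aldh1a2* as downregulated, by in situ hybridization at earlier stages. These libraries do not hold that broader knockdown.

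*cyp26c1* (ENSXETG00000027748), a Cyp26 enzyme known from the hindbrain and head, was at 57.7, 78.5 and 71.2 CPM in the KD replicates and at 56.6, 70.6 and 81.3 CPM in the control replicates. The KD libraries lay within the range of the control libraries. The means were 69.2 ± 10.5 and 69.5 ± 12.4 CPM (SD, n = 3 libraries), and the log2 fold change was -0.01 with TMM scaling (standard error 0.17, 95% interval -0.40 to 0.39, edgeR FDR 0.988) and 0.070 with scaling by library size alone. In a RefSeq annotation of a later assembly (UCB_Xtro_10.0) *cyp26a1* and *cyp26c1* are neighbouring protein-coding genes. Neither passed the test, while *cyp26b1* did. Whether the change of *cyp26b1* differs from theirs was not tested.

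Marker lists of the tail bud and the hindbrain were read beside the Cyp26 genes. Of 12 hindbrain and spinal cord genes 8 were significantly higher in the KD and none lower, where 7.44% of all genes were higher and 6.98% lower. The list holds *sox2*, *pax3*, *zic2* and *neurog3*, which the study reported as upregulated in these libraries, *neurog3* under the name *ngn3*. The count is therefore not independent of that report. The summed level of the 12 genes was 492 to 709 CPM in the KD libraries and 262 to 396 CPM in the control libraries. The 8 tail bud and notochord genes include *Xbra* and *Xbra3*, the targets of the morpholinos, so this list does not stand apart from the knockdown itself. Of the 8, 2 were significantly lower and 1 higher, against the same shares of all genes. Every KD library lay below every control library for 2 of the 8, *Xbra* and *Xbra3*, as for 14.6% of all genes. For 2 others every KD library lay above, as for 15.9% of all genes. The summed level of the 8 genes was 56.0 to 103 CPM in the KD libraries and 51.1 to 111 CPM in the controls. None of the markers of either list that passed the filter was at 0 in a stage 32 library. The part of the hindbrain in the rise of *cyp26b1* was not tested.

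**Figure D2:**
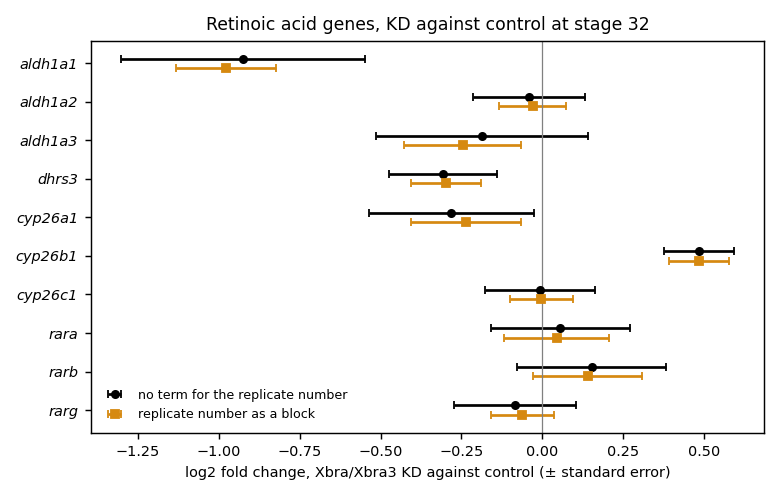
Log2 fold change of each retinoic acid gene in the KD against the control at stage 32 (x axis, points with the standard error from edgeR), without a term for the replicate number (circles) and with it as a block (squares). *cyp26b1* stands at 0.49 in both, *aldh1a1* at -0.93 and -0.98, and the other genes between -0.31 and 0.15; *aldh1a2* and *cyp26c1* turn from just below 0 to 0.034 and 0.070 with scaling by library size alone.

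The retinoic acid receptors did not pass the test in either direction. *rarg* (ENSXETG00000012670), known as a receptor of the tail bud and cartilage precursors, was at 126, 99.3 and 117 CPM in the KD replicates and at 144, 89.0 and 129 CPM in the control replicates. All KD libraries lay inside the control range, and replicate 2 was the lowest of each group. The log2 fold change was -0.08 (standard error 0.19, 95% interval -0.52 to 0.35, edgeR FDR 0.834), from means of 114 ± 13.5 and 121 ± 28.7 CPM (SD, n = 3 libraries).

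*rara* (ENSXETG00000024390), a receptor expressed in many tissues, was at 3.35, 2.39 and 3.07 CPM in the KD replicates and at 2.86, 2.57 and 3.09 CPM in the control replicates, from 190 to 343 reads in a library. The groups overlap. Its log2 fold change was 0.06 (standard error 0.21, 95% interval -0.44 to 0.55, edgeR FDR 0.907).

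*rarb* (ENSXETG00000007272), a receptor gene that retinoic acid induces in many vertebrate cells, was at 2.09, 2.25 and 2.74 CPM in the KD replicates and at 1.99, 1.90 and 2.54 CPM in the control replicates, from 179 to 301 reads in a library. Each KD library was above its same-numbered control, by 0.07 to 0.24 on the log2 scale, with overlapping groups. The log2 fold change was 0.15 (standard error 0.23, 95% interval -0.38 to 0.68, edgeR FDR 0.735). It was 0.010 without KD replicate 3 and 0.28 without control replicate 3. *rara* and *rarb* had at most 343 reads in a stage 32 library. Their standard errors, 0.21 and 0.23, exceed their log2 fold changes of 0.06 and 0.15. The part of read depth in these errors was not tested.

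Ratios of reads within a library do not depend on the scaling between libraries. Of 4 such ratios none can give a p below 0.1 with 3 libraries against 3 in the exact two-sided permutation test. The summed reads of the ALDH1A genes over the summed reads of the Cyp26 genes gave log2 ratios of -2.17, -1.96 and -2.27 in the KD replicates and -1.56, -1.42 and -1.96 in the control replicates. Every KD library was below its same-numbered control, and the groups just fail to overlap at KD replicate 2 and control replicate 3. The means were -2.13 ± 0.157 and -1.65 ± 0.276 (SD, n = 3 libraries), a difference of -0.48 (exact permutation p = 0.1, adjusted over 4 ratios 0.4). The Cyp26 sum counts each gene by its reads, of which *cyp26b1* holds the most, and it was 299 to 303 CPM in the KD libraries and 237 to 283 CPM in the controls.

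Each of the other ratios overlapped between the groups. The log2 ratio of *aldh1a2* over *cyp26a1* was 0.59, 0.10 and -0.09 in the KD and 0.07, 0.59 and -0.67 in the control, a difference of 0.20 (exact permutation p = 0.7) that turned to -0.13 without control replicate 3. That of *aldh1a2* over *dhrs3* was higher in the KD in all 3 pairs, with a difference of 0.27 (exact permutation p = 0.3). That of *rarg* over *rara* differed by -0.10 (exact permutation p = 0.6) and by 0.038 without control replicate 1.

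**Figure D3:**
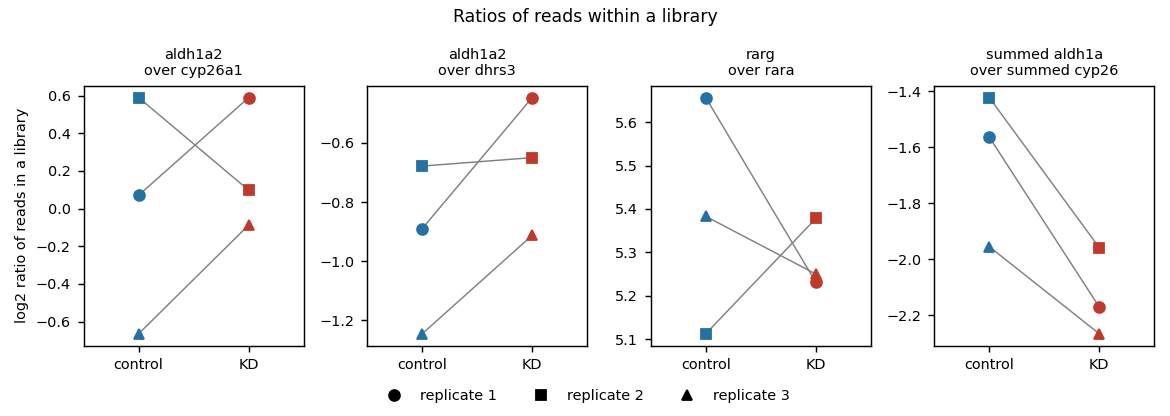
Log2 ratio of reads within a library for 4 pairs of genes or gene groups (y axis, with its own scale in each panel, not starting at 0) in control and Xbra/Xbra3 KD libraries; lines join libraries of the same replicate number, and no error bars are drawn. The summed ALDH1A over summed Cyp26 ratio is lower in the KD in all 3 pairs, from -1.96 to -1.42 in the control to -2.27 to -1.96 in the KD, and the other ratios overlap.

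The stage 20 library shows how these genes stood earlier in development. It has no replicate, its embryos were not injected, so stage and injection cannot be told apart, and it is set against the same control libraries as the KD. Of the 10 genes, 5 lay at least 2-fold from the control mean, 3 higher and 2 lower at stage 20, where 35.2% of all genes did (13.0% higher, 22.2% lower). It lay outside the range of the control libraries for 9 of the 10, and for 79.8% of all genes. Levels here are in CPM with all 7 libraries scaled together.

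The ALDH1A genes differed between the stages in opposite directions. *aldh1a2* was at 147 CPM at stage 20, from 15909 reads, and at 35.1 to 52.2 CPM in the control libraries, a stage 20 level 3.44 times the control mean. *aldh1a1* was at 0.991 CPM at stage 20, from 107 reads, against 12.8 to 24.2 CPM in the controls, whose mean was 17.9-fold higher. *aldh1a3* had 19 reads at stage 20 (0.176 CPM), against 14.6 to 23.3 CPM in the controls, whose mean was 112-fold higher. The stage 20 library was thus above every control library for *aldh1a2* and below every one for *aldh1a1* and *aldh1a3*.

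Among the receptors, *rarg* was at 334 CPM at stage 20, 2.79 times the control mean, and *rara* was at 6.86 CPM, 2.44 times. *rarb* stood at 3.08 CPM, 1.45 times, with the controls between 1.87 and 2.52 CPM. All of the receptor genes lay above every stage 32 library.

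*dhrs3* was at 157 CPM at stage 20, 1.92 times the control mean and above all controls. The Cyp26 genes lay nearer to their stage 32 levels. *cyp26a1* was at 56.7 CPM (1.28 times), just above the highest control at 55.7 CPM, *cyp26b1* at 159 CPM (1.15 times) and *cyp26c1* at 58.2 CPM (0.846 times), inside the control range. The stage 20 level of *cyp26b1* lay between those of the control libraries (130 to 145 CPM) and the mean of the KD libraries, 191 CPM.

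**Figure D4:**
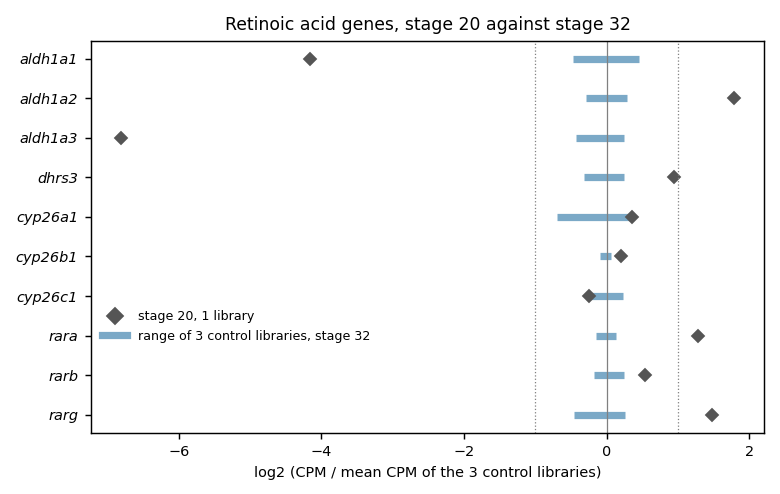
Level of each retinoic acid gene in the stage 20 library (diamonds, 1 library, no error) and range of the 3 control libraries at stage 32 (bars), as log2 of CPM over the mean of the control libraries; dotted lines mark 2-fold. *aldh1a2*, *rara* and *rarg* lie beyond 2-fold above, and *aldh1a1* and *aldh1a3* far below, at 0.0560 and 0.00894 times the control mean.

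Other genes of the retinoid pathway were read from a list of 44 names, of which 38 were in the table and tested. Of these, 2 passed the test, 1 in each direction (14.4% of all genes), and the median log2 fold change was -0.13, against 0.01 over all genes. Negative estimates numbered 25 and positive ones 13. With the replicate block 21 of the 38 passed, 14 lower and 7 higher, against 38.2% of all genes, and DESeq2 called 5, against 20.8% of all genes it adjusted.

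*cyp27c1* (ENSXETG00000025324), which in zebrafish and amphibians converts vitamin A1 to vitamin A2, rose. It was at 23.5, 17.6 and 17.3 CPM in the KD replicates and at 8.86, 8.46 and 9.35 CPM in the control replicates. No KD library came near a control library. The rise was 2.19-fold (log2 fold change 1.13, standard error 0.16, edgeR FDR 0.00913), and it passed 10% whichever of the 6 libraries was left out. At stage 20 the gene stood at 1.16 times the control mean.

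*dhrs4* (ENSXETG00000022566), an oxidoreductase that acts on retinaldehyde and other carbonyl compounds, fell. It was at 11.5, 15.2 and 12.6 CPM in the KD replicates and at 20.4, 30.8 and 22.0 CPM in the control replicates, without overlap. The fall was 1.87-fold (log2 fold change -0.90, standard error 0.20, edgeR FDR 0.0345), and the highest FDR with any 1 of the 6 libraries left out was 0.0997. At stage 20 it stood at 0.297 times the control mean.

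Of the retinoid X receptors, the partners of the retinoic acid receptors, *rxrb* was at 193, 178 and 207 CPM in the KD replicates and at 258, 224 and 236 CPM in the control replicates. These do not overlap, but the log2 fold change of -0.31 (standard error 0.12) had an edgeR FDR of 0.140, 0.0276 with the replicate block and 0.0972 with DESeq2. *rxra* had a log2 fold change of 0.05 (edgeR FDR 0.935) and *rxrg* of 0.17 (edgeR FDR 0.604).

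The proteins that bind and carry retinoids follow. *rbp4*, the retinol carrier of blood plasma, was at 72.3, 511 and 290 CPM in the KD replicates and at 260, 989 and 495 CPM in the control replicates. Replicate 2 was the highest of each group and replicate 1 the lowest, and the KD library was the lower in each pair. Its log2 fold change of -0.997 had a standard error of 0.68 and an edgeR FDR of 0.411, and with the replicate block it was -1.19 with an FDR of 0.00272. The estimate was -0.40 without control replicate 2 and -1.70 without KD replicate 2.

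*stra6*, the membrane receptor that takes up retinol from Rbp4, had the same order of replicates, at 13.8, 28.4 and 20.5 CPM in the KD replicates and 19.8, 67.7 and 36.0 CPM in the controls (log2 fold change -0.98, standard error 0.44, edgeR FDR 0.211, and 0.00312 with the replicate block). DESeq2 gave *stra6* an FDR of 0.0875, and the edgeR estimate was -0.44 without control replicate 2 (FDR 0.465) and -1.31 without control replicate 1 (FDR 0.0893). *crabp2*, a cytoplasmic protein that hands retinoic acid to its receptors, was at 425, 359 and 408 CPM in the KD replicates and 362, 247 and 285 CPM in the controls. Its KD library was the higher in every pair (log2 fold change 0.42, standard error 0.16, edgeR FDR 0.157, and 0.0107 with the replicate block). The edgeR FDR of *crabp2* was 0.0584 with scaling by library size alone, 0.0501 with 4 reference genes and 0.0856 without control replicate 1, and the estimate was 0.27 without control replicate 2. *crabp1*, another cytoplasmic retinoic acid binding protein, was below 0.5 CPM in every library, with a log2 fold change of 0.83 (edgeR FDR 0.237, and 0.0921 with the replicate block). *rdh10*, which oxidises retinol to retinaldehyde, had a log2 fold change of -0.14 (standard error 0.14, edgeR FDR 0.584).

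Between stages, 16 of the 38 genes were at least 2-fold lower at stage 20 than the control mean, as were 22.2% of all genes, and 4 at least 2-fold higher, as were 13.0%. *rbp4* had only 8 reads at stage 20 (0.0741 CPM), against 258 to 973 CPM in the control libraries. Its ratio to the control mean, 0.000129, is therefore imprecise. *stra6* stood at 0.0681 times the control mean at stage 20 and *rxrg* at 0.0772 times. *rxra* stood at 2.20 times.

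**Figure D5:**
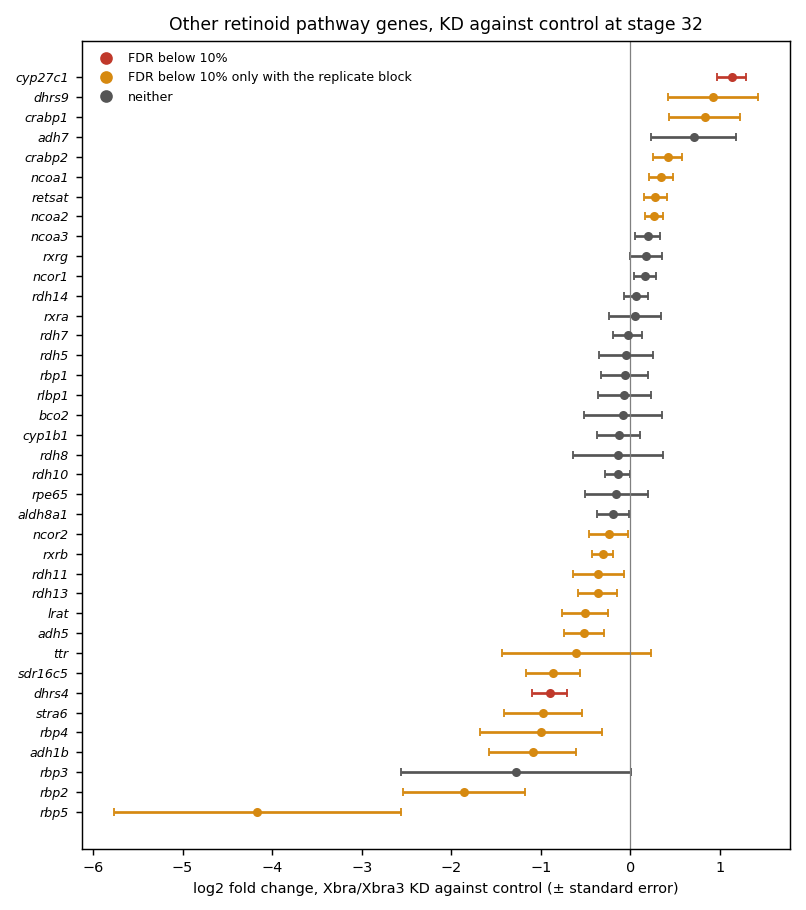
Log2 fold change in the KD against the control at stage 32 (x axis, points with the standard error from edgeR) of the 38 other retinoid pathway genes tested. *cyp27c1* at 1.13 and *dhrs4* at -0.90 pass an FDR of 10%, and 21 genes, these included, pass it with the replicate block.

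Genes known to respond to retinoic acid, in either direction, were read from a list of 24 names, of which 22 were tested. Of these 5 passed, 4 higher and 1 lower, where 7.44% of all genes were higher and 6.98% lower, and the median log2 fold change was 0.26 against 0.01 over all genes. With the replicate block 13 passed, 12 higher and 1 lower, where 19.2% of all genes were higher and 19.0% lower. *tbx1*, a T-box factor of the pharynx, was at 162, 146 and 153 CPM in the KD replicates and at 77.9, 74.4 and 90.3 CPM in the control replicates, far apart, and rose 1.90-fold (standard error of the log2 fold change 0.12, edgeR FDR 0.00601). The anterior Hox genes *hoxb3* (1.96-fold, edgeR FDR 0.0189) and *hoxd3* (1.80-fold, edgeR FDR 0.0184) rose and passed whichever of the 6 libraries was left out. *hoxd4* rose 1.49-fold (edgeR FDR 0.0742) but passed in none of those fits, where its FDR was 0.115 to 0.201. *pdx1*, a factor of the pancreas and duodenum, fell 2.01-fold, from 1.51 to 0.743 CPM (edgeR FDR 0.0888), and passed in 1 of the 6 fits, that without KD replicate 1, with an FDR of up to 0.209 in the others and of 0.110 with scaling to 4 reference genes.

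Markers of several tissues of the whole embryo also differed, in some lists more than in others. Only some of these tissues are known to express the retinoic acid genes. The counts of significant genes below stand against 6.98% of all genes lower and 7.44% higher. The hindbrain and spinal cord list given above shares *hoxb1* with the responsive list. Its median log2 fold change was 0.96 against 0.01 over all genes, with 11 estimates positive and 1 negative. For 9 of its 12 genes every KD library lay above every control library, as for 15.9% of all genes. For 1 every KD library lay below, as for 14.6% of all genes. The 8 endoderm genes include *pdx1*, and also *sox2*, which the hindbrain and spinal cord list holds too. Of the 8, 2 were significantly lower and 1 higher, with summed levels of 227 to 290 CPM in the KD libraries and 173 to 250 CPM in the controls. Of 10 somite and presomitic genes, the tissue best known for *aldh1a2*, 4 were significantly lower, with summed levels of 115 to 127 CPM in the KD libraries and 136 to 166 CPM in the controls, and *mespb* was at 0 in a KD library. The somite list holds *msgn1*, *mespa*, *mespb* and *foxc1*, which the study reported by other assays as downregulated in embryos lacking Brachyury. Its count is therefore not independent of that report. Of 9 skeletal muscle genes 8 were significantly lower (5763 to 7103 CPM against 13770 to 13970 CPM). The muscle list holds *myh2* and *tnnc1*, which the study reported as downregulated in these libraries. The lists of 4 more tissues held fewer significant genes. There were 1 lower and 1 higher of 9 pronephros genes, and 0 lower and 1 higher of 9 heart genes. Of 8 blood genes 1 was lower and 0 higher, and of 9 epidermis genes 1 was lower and 1 higher. The part of any of these tissues in the levels of the retinoic acid genes was not tested.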

How the data were processed

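The authors prepared libraries by the TruSeq protocol, read 55 bases from both ends, aligned the pairs with Bowtie 0.12.7 to the Ensembl JGI4.1 transcriptome, discarded pairs on transcripts of different genes, and deposited raw read counts per transcript. Discarding such pairs lowers the counts of near-identical genes. The header names the 7 value columns after 6 empty fields, and the names were taken in their order.

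Counts were summed per gene. Genes with at least 10 reads summed over the 6 stage 32 libraries entered edgeR 4.0.16 (R 4.3.3) with TMM scaling, the quasi-likelihood test, no replicate term and Benjamini-Hochberg adjustment over all 16944 genes. The threshold was an FDR of 10%. Standard errors are the log2 fold change divided by the square root of the F statistic. Ratios were tested with SciPy 1.17.1. DESeq2 1.42.0 was an alternative. The method was tested on simulated data without any effect of the replicate number. These libraries have such an effect, so the simulation cannot show how often the test errs on them. The p-values measure the spread between these libraries, which the study calls biological triplicates.

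Deviations of same-numbered KD and control libraries from their group means correlated across genes at r = 0.573, 0.586 and 0.316, and those of different numbers at -0.51 to 0.00961, so the numbers pair the libraries. Genes are not independent replicates.

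The genes and lists were chosen with earlier results of these data known. The text names all 10 retinoic acid genes, pathway and responsive genes with an FDR below 10%, *rxra*, *rxrb*, *rxrg*, *crabp1*, *crabp2*, *rbp4*, *rdh10* and *stra6*, and the 2 nearest profiles of the 2 genes with the smallest FDR. Outside this rule, *Xbra*, *Xbra3* and *mespb* are named as checks. To describe the marker lists, *hoxb1*, *sox2*, *pax3*, *zic2*, *neurog3*, *msgn1*, *mespa*, *foxc1*, *myh2* and *tnnc1* are named as well. Of 7 further marker names and 8 pathway and responsive names no match was found in the table. The other assays of the series were not used here.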

Additional observations from a re-analysis of the deposited data

How the results depend on the processing

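For the 10 retinoic acid genes, 180 alternative results were read, of which 160 kept the direction and the side of the threshold. They include the main estimates read at an FDR of 5%, which are not new estimates. They also include a larger prior count in edgeR, which left the FDR of each gene unchanged. The count of 160 therefore overstates how far the results were tried. No scaling or filter changed a call among the 10 genes. The number called was 2 with DESeq2, 3 with the replicate block, 2 with a term for replicate 2 and 0 to 2 with any 1 of the 6 libraries left out. The block changed the calls of *aldh1a1* and *dhrs3* and of no other of the 10 genes. Of the 38 other retinoid pathway genes 5, 21, 14 and 2 to 6 were called under the same settings. Over all genes DESeq2 called 3389 of 16274 (20.8%). Of 16944 genes, the main fit called 2443 (14.4%), the block 6468 (38.2%) and the replicate 2 term 4490. At an FDR of 5% the main fit called 1269. With 1 library left out, where the filter ran over the libraries that remained, 868 to 1961 genes were called. The direction turned in 12 of the 180 results, for *aldh1a2*, *aldh1a3*, *cyp26c1*, *rara* and *rarg*. The main estimate farthest from 0 among these was -0.19 for *aldh1a3*, which was 0.011 without KD replicate 3. With library size only and with 4 reference genes, *aldh1a2* stood at 0.034 and 0.024 and *cyp26c1* at 0.070 and 0.050. With 1 library left out, log2 fold changes ran from -0.17 to 0.13 for *aldh1a2*, -0.66 to 0.011 for *aldh1a3*, -0.13 to 0.12 for *cyp26c1*, -0.046 to 0.16 for *rara*, 0.010 to 0.28 for *rarb*, -0.56 to -0.086 for *cyp26a1*, -0.29 to 0.065 for *rarg* and -0.11 to 0.26 for *rxra*. The log2 ratio of *aldh1a2* over *cyp26a1* differed by -0.13 to 0.50 and that of *rarg* over *rara* by -0.23 to 0.038, and the summed ratio kept its sign at -0.64 to -0.37. The cause of these changes was not tested. The stage 20 count was 5 to 6 genes with 1 control library left out, *dhrs3* being the gene at the 2-fold limit. edgeR's legacy dispersions, an alternative chosen after seeing the data, changed no call of the 10 genes. The limits are 3 libraries in a group, 1 at stage 20, whole embryos, and counts not divided by transcript length.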

Other observations

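Replicate 2 stood apart for several of the retinoic acid genes in both groups. *aldh1a1* was 1.73 times the mean of replicates 1 and 3 in the KD and 1.68 times in the control, and *aldh1a3* was 2.14 and 1.31 times. *rarg* was 0.819 and 0.650 times, *dhrs3* 0.830 and 0.737 times, and *cyp26a1* 0.935 and 0.523 times. *cyp26b1*, at 0.951 and 1.04 times, varied little with the replicate number.

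The genes whose profile over the 7 libraries was most like that of *cyp26b1*, by the root mean square difference of centred log2 CPM among 9171 genes, were *rfx1* (0.0433) and *KIAA1267* (0.0499). *rfx1*, a winged-helix transcription factor, was at 30.9, 28.1 and 26.8 CPM in the KD replicates, 20.3, 21.2 and 23.0 CPM in the control replicates and 25.4 CPM at stage 20. For *aldh1a1* they were *commd10* (0.156) and *sult1a1* (0.176), a sulfotransferase. *sult1a1* was at 21.9, 43.7 and 33.8 CPM in the KD replicates, 39.7, 91.6 and 62.8 CPM in the control replicates and 3.59 CPM at stage 20. This likeness is a description over 7 libraries and carries no test.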
